A study of Danio rerio with 20 samples.

Results

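The 66 genes described here encode proteins of the mitochondrial ribosome of zebrafish. They are all genes whose symbol starts with mrpl or mrps followed by a digit in the plate file that writes symbols for its rows, matched by ENSDARG identifier on every plate, and they make up 66 of 26651 gene IDs. By symbol, 44 belong to the large subunit (mrpl) and 22 to the small subunit (mrps). Of these symbols, 4 are written in capitals (MRPL49, MRPL52, MRPL55 and MRPS12). No measured value entered the choice. In all, 65 of the 66 genes were listed on all 20 plates, and 1 had fewer than 20 unique molecular identifiers (UMIs) over all wells and was tested in no comparison.

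The mitochondrial ribosome sits in the mitochondrial matrix and makes the few proteins that the mitochondrial genome encodes, which are core subunits of the respiratory chain complexes and of ATP synthase. Its ribosomal RNA is mitochondrially encoded, whereas all its proteins are encoded in the nucleus, made in the cytosol and imported. In mouse, blood stem cells rely largely on glycolysis, and their differentiation needs oxidative phosphorylation. The symbols do not map perfectly onto the particle: in mammals the product of Mrps18a is found in the large subunit, and the product of Mrps36 (KGD4) belongs to the 2-oxoglutarate dehydrogenase complex. Both genes were kept, as the rule on symbols demands.

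The study sorted kdrl-positive, cd41-low cells, a gate for hematopoietic stem and progenitor cells (HSPCs), from pooled embryos of a tg(kdrl:mCherry/cd41:eGFP) background into plates of 384 wells and counted transcripts with SORT-seq, which tags each transcript near its 3′ end with a UMI. The aorta-gonad-mesonephros (AGM), where HSPCs leave the endothelium by endothelial-to-hematopoietic transition (EHT), was taken at 36 hpf on 12 plates: 4 of control embryos labelled wildtype (C1 to C4), 5 of embryos treated with the PI3K inhibitor LY294002 (L1 to L5) and 3 holding cells of both (X1 to X3). The caudal hematopoietic tissue (CHT), which HSPCs colonize next, was taken at 5 dpf on 8 plates, of which 2 of control (W1, W2) and 2 of LY294002-treated embryos (V1, V2) are described. PI3K is a lipid kinase of growth factor signalling, and LY294002 acts on the whole embryo. In the paper controls received DMSO, and early and late treatments had different time windows. Exposure may thus differ between the AGM and the CHT plates. A plate was the replicate. Nothing in the labels says that the plates of a group came from separate pools of embryos, so that a p-value measures the spread between plates, which may be technical.

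Plates held 1837137 to 8298215 UMIs, and the 6116 wells that reached 1500 UMIs were kept as cells (3716 of the AGM and 2400 of the CHT). No cell had the same counts as a cell of another plate (0 found). Cells were clustered with the 66 genes left out of the distance and clusters were named by marker genes, which gave, in the AGM, 1324 HSPC-like, 1015 neutrophil-like, 692 monocyte-like and 358 EHT-like cells and 327 cells led by skin genes that were left unnamed. A second clustering (Leiden) gave the same name to between 84.1% and 95.1% of the cells of each AGM class, but only to 53.3% of the HSPC-like cells of the CHT. In the HSPC-like cells of the CHT the marker gfi1aa was at 0, and 17 muscle genes took between 0.00447% and 6.18% of the UMIs of HSPC-like cells, depending on the plate.

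In the AGM the mitochondrial ribosomal protein genes took the largest share of UMIs in HSPC-like cells, on plates with at least 20 cells of a class. The summed share was 0.373% ± 0.0389 (SD, n = 12 plates) in HSPC-like cells, 0.210% ± 0.0409 (n = 11) in monocyte-like cells, 0.132% ± 0.0202 (n = 11) in neutrophil-like cells and 0.121% ± 0.0325 (n = 6) in EHT-like cells. Smaller classes were left out of the comparisons. The order of the last pair does not exceed their spread between plates.

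**Figure D1:**
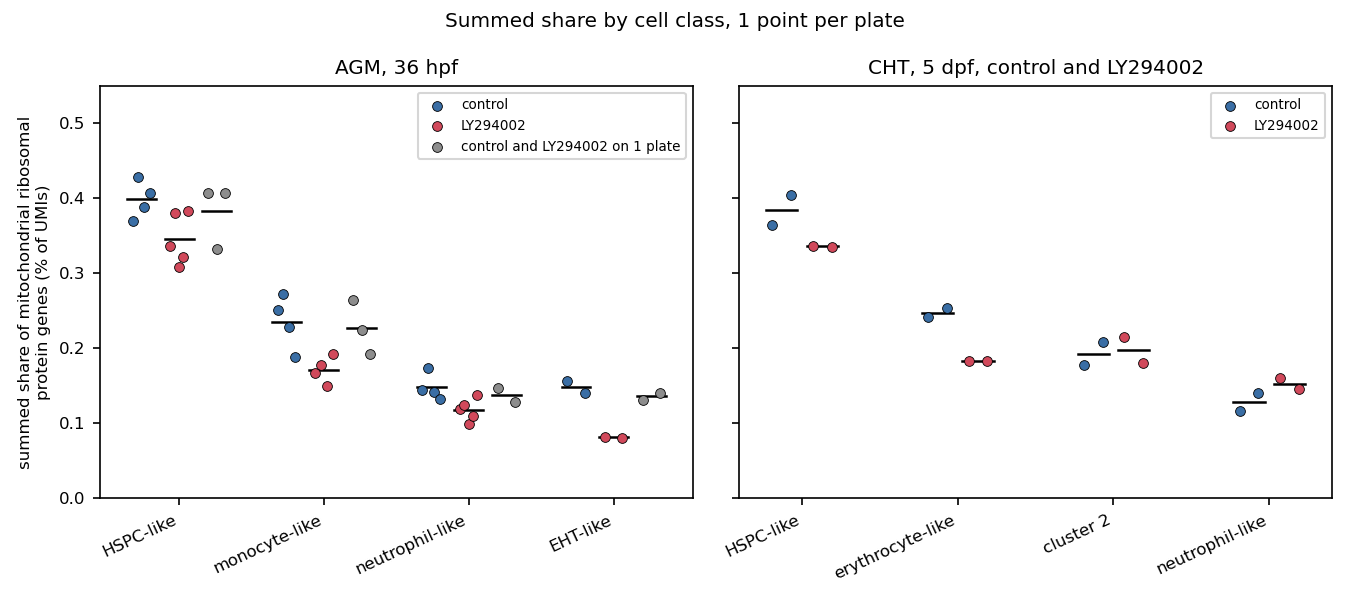
Summed share of the 66 mitochondrial ribosomal protein genes in percent of UMIs (y axis) by cell class (x axis), with 1 point per plate, coloured by group, and a bar at the mean of each group. In the AGM every HSPC-like point (0.309% to 0.428%) lies above every point of the other classes shown.

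On the AGM plates the lowest HSPC-like share was 0.309% (L3) and the highest 0.428% (C2). Neutrophil-like cells ranged from 0.0990% (L3) to 0.174% (C2), and monocyte-like cells from 0.149% (L3) to 0.273% (C2). The same plates thus held the extremes of all 3 classes, and HSPC-like cells were above the other class on 11 of 11 plates in both comparisons. EHT-like cells ranged from 0.0799% (L2) to 0.156% (C1), below the HSPC-like cells on 6 of 6 plates. Ratios of the shares were averaged over plates on the log2 scale. They were 2.81-fold against neutrophil-like, 1.80-fold against monocyte-like and 3.19-fold against EHT-like cells. The log2 ratios were 1.49 ± 0.15, 0.84 ± 0.23 and 1.67 ± 0.39 (SD over plates). The ranges of the shares did not overlap in any of these comparisons, which pool control, treated and mixed plates. Against EHT-like cells the ratio was 2.38-fold (C1) and 3.06-fold (C2) on control plates. It was 4.12-fold (L1) and 4.76-fold (L2) on treated plates, and 2.56-fold (X2) and 2.89-fold (X3) on mixed plates. As a score over the genes, the summed share is given as a description, with no test.

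A share depends on what else a cell transcribes, so counts per cell are given beside it. The median cell of the HSPC-like class held 42.4 UMIs of these genes (mean of the plate medians), against 23.1 in monocyte-like, 16.1 in neutrophil-like and 6.33 in EHT-like cells. The median of all UMIs per cell was 11550, 12060, 14050 and 6175 in the same order. Neutrophil-like cells therefore held more UMIs in all than HSPC-like cells and fewer of these genes, whereas EHT-like cells held fewer of both.

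Gene by gene, 61 of the 65 genes tested were higher and 1 was lower in HSPC-like than in neutrophil-like cells (edgeR's quasi-likelihood test with plate as a block, Benjamini-Hochberg adjusted p under 0.05 over all 12315 genes tested). Of all genes tested, 36.5% were called higher and 31.4% lower. The median log2 fold change of the 65 genes was 0.98, that of all genes 0.15. Large-subunit genes were higher in 42 of 43 cases and small-subunit genes in 19 of 22. The test scales libraries by TMM factors, which moved the median of all genes from 0.67 to 0.15 in this comparison. Without the factors 64 genes were higher and 0 lower, a count given without the share of all genes called in that fit.

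Against monocyte-like cells 48 of 65 genes were higher and 0 lower, where 38.7% of all 11096 genes tested were higher and 32.1% lower. The median log2 fold change was 0.64, against 0.20 for all genes. By subunit, 35 of 43 large-subunit and 13 of 22 small-subunit genes were higher. Of these 3 contrasts that with EHT-like cells was the widest. There 63 of 65 genes were higher and 0 lower, with a median of 1.68 against -0.00 for all 10899 genes tested, of which 24.6% were higher and 24.1% lower. All 43 large-subunit genes tested and 20 of 22 small-subunit genes were in this count, and mrps21 (log2 fold change 0.73 ± 0.29, SE, adjusted p 0.050) and mrps23 (1.03 ± 0.42, adjusted p 0.052) were not. EHT-like cells were few (20 or more per plate) and shallow, so that single genes rest on few UMIs there.

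**Figure D2:**
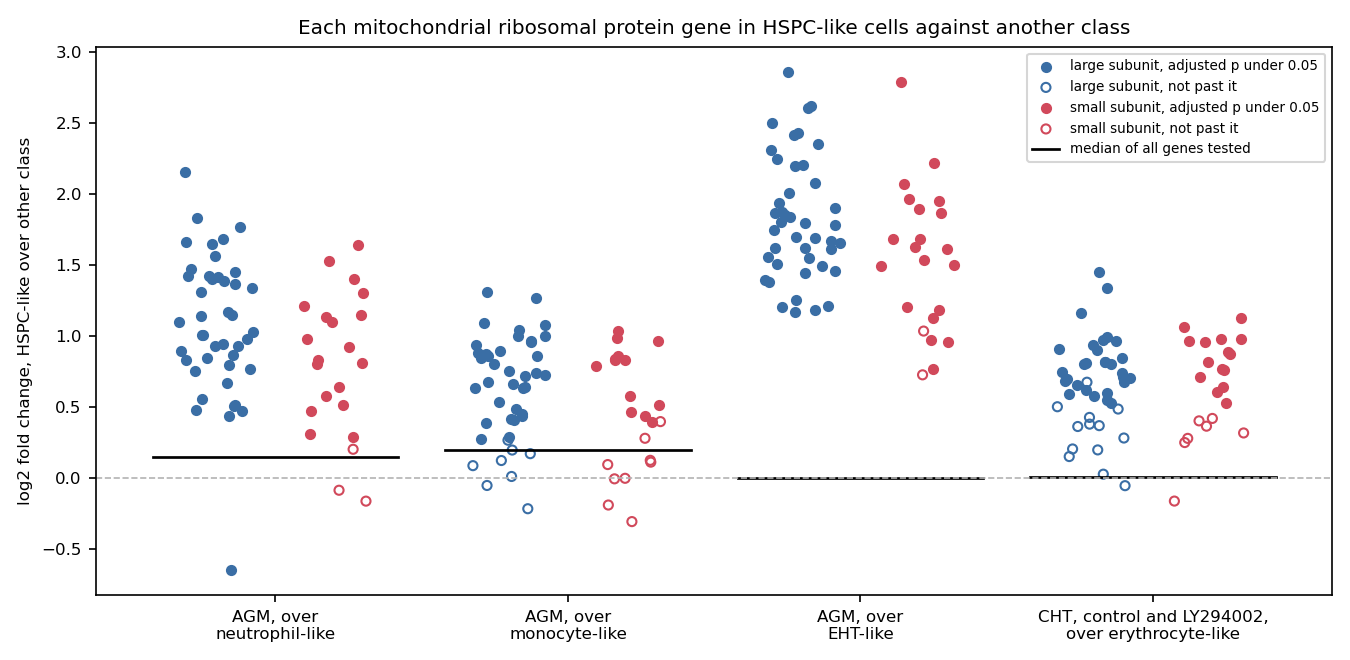
Log2 fold change (y axis, edgeR) of each mitochondrial ribosomal protein gene in HSPC-like cells over another class (x axis), large subunit in blue and small subunit in red, filled where the adjusted p was under 0.05, with a black line at the median of all genes tested. Each filled point lies above 0 except that of mrpl47 against neutrophil-like cells (-0.65).

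Genes whose plates do not overlap were also counted. Of 65 genes, the HSPC-like plates lay wholly above the neutrophil-like plates for 46 (15.8% of all genes tested did so). They lay wholly above the monocyte-like plates for 11 (13.0%), which is near the share of all genes, and above the EHT-like plates for 51 (13.2%). The contrast with EHT-like cells rests on 6 plates and the others on 11, so that these counts cannot be ranked. None of the 65 genes lay wholly below in these comparisons (8.04%, 9.55% and 12.9% of all genes did so).

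The classes differed in other respects too. Neutrophil markers took 9.73% to 12.7% of UMIs in neutrophil-like cells and 0.0996% to 0.389% in HSPC-like cells, and skin genes 0.707% to 1.02% against 0.214% to 0.442%. The part of skin RNA in these differences was not tested.

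The stalk of the large subunit, a flexible arm that recruits translation factors, was represented by mrpl12, with mrpl10 and mrpl11 at its base. In mammals the product of mrpl12 also binds the mitochondrial RNA polymerase. mrpl12 had the most UMIs of the 66 genes (7655 in all wells), and it was also the gene with the largest change against neutrophil-like cells. In HSPC-like cells mrpl12 ranged over plates from 139.6 to 239.7 CPM (UMIs scaled to a total of 1000000; 176 ± 27.8, SD, n = 12). In monocyte-like cells it ranged from 32.8 to 105 CPM (68.1 ± 17.7, n = 11), in neutrophil-like cells from 14.1 to 51.2 CPM (26.5 ± 10.0, n = 11) and in EHT-like cells from 17.0 to 61.9 CPM (40.9 ± 18.3, n = 6). The HSPC-like plates thus stood apart from every plate of the other classes.

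The log2 fold change of mrpl12 was 2.16 ± 0.11 (SE) against neutrophil-like cells (adjusted p 1.6e-13, edgeR), 1.08 ± 0.10 against monocyte-like cells (adjusted p 1.1e-08) and 2.31 ± 0.22 against EHT-like cells (adjusted p 5.6e-07). mrpl12 moved more than the rest of the group between HSPC-like and neutrophil-like cells: it took 4.71% ± 0.409 (SD, n = 12 plates) of the UMIs of the 66 genes in HSPC-like cells and 1.96% ± 0.449 (n = 11) in neutrophil-like cells. These ranges, 4.19% to 5.60% and 1.40% to 2.94%, did not overlap. At the base of the stalk, mrpl11 (113 against 34.4 CPM) and mrpl10 (51.5 against 15.9 CPM) had log2 fold changes of 1.15 ± 0.11 and 1.17 ± 0.15 over neutrophil-like cells.

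**Figure D3:**
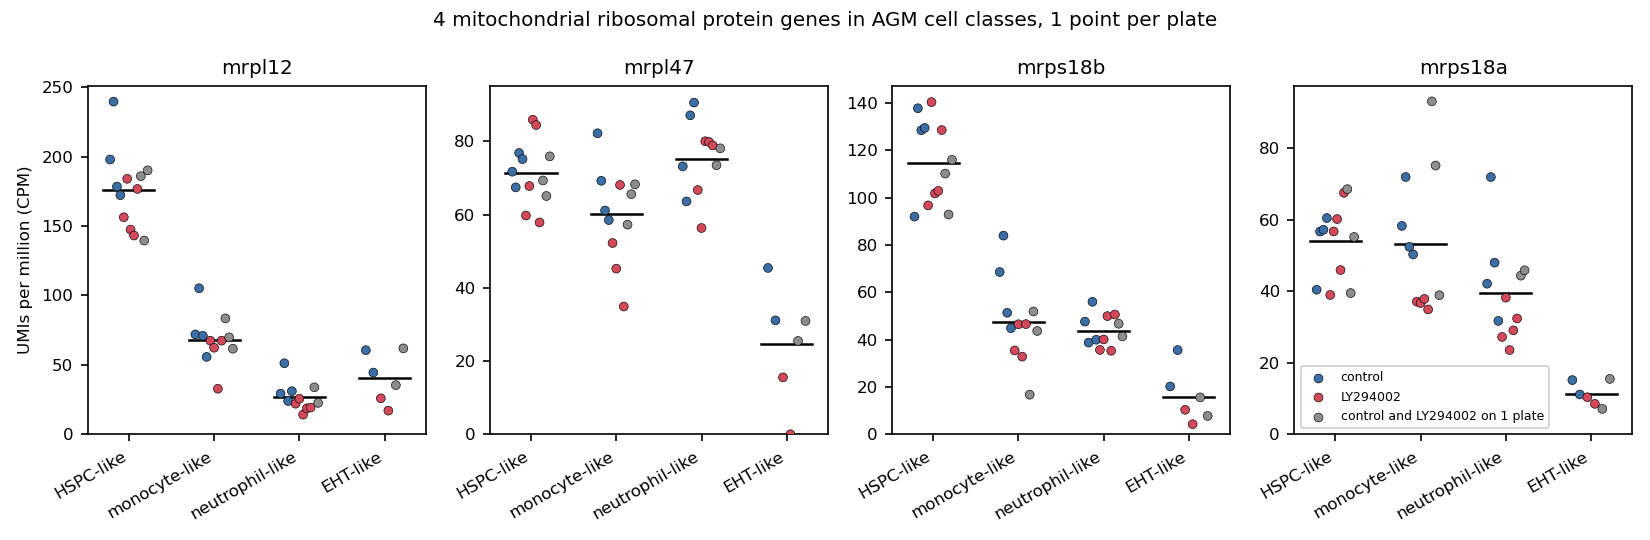
CPM (y axis) of mrpl12, mrpl47, mrps18b and mrps18a in the AGM cell classes (x axis), with 1 point per plate, coloured by group, and a bar at the mean. mrpl12 in HSPC-like cells (139.6 CPM and above) lies above every other class, whereas mrpl47 is at similar levels in HSPC-like and neutrophil-like cells.

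mrpl47 went against the group. Its product, like that of mrpl23, lies near the exit of the tunnel through which the new protein leaves the large subunit. mrpl47 was at 57.9 to 85.9 CPM in HSPC-like cells and at 56.3 to 90.6 CPM in neutrophil-like cells, so that the plates overlapped fully. The TMM-scaled fit called it lower in HSPC-like cells (log2 fold change -0.65 ± 0.10, adjusted p 5.3e-06, edgeR). With library size alone its log2 fold change was -0.06 and the call was lost. In neutrophil-like cells mrpl47 had the highest mean CPM of the 66 genes (75.3), followed by mrps18b (43.8). It was at 60.2 CPM in monocyte-like cells and at 24.8 CPM in EHT-like cells, where plate L2 held none. Near the same exit, mrpl23 had a log2 fold change of 0.77 ± 0.11 against neutrophil-like cells and of 0.09 ± 0.11 against monocyte-like cells, the latter not called (adjusted p 0.50).

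Other large-subunit genes with the largest changes against neutrophil-like cells were mrpl43 (58.7 against 11.4 CPM), mrpl42 (41.4 against 8.12 CPM), mrpl18 (67.5 against 14.2 CPM) and mrpl36 (89.7 against 18.9 CPM). Their log2 fold changes were 1.83 ± 0.16, 1.77 ± 0.19, 1.69 ± 0.15 and 1.66 ± 0.14. In bacteria the counterpart of mrpl18 binds the 5S ribosomal RNA, and the counterpart of mrpl36 is among the smallest ribosomal proteins. mrpl43 was uneven even within HSPC-like cells, from 25.8 CPM (L3) to 81.2 CPM (L2), and among neutrophil-like cells it fell to 1.88 CPM on L3 and 4.05 CPM on L5.

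Among the other genes with most UMIs the changes were graded. mrpl37 (101 against 26.4 CPM) and mrpl39 (122 against 39.3 CPM), whose mammalian products have no bacterial counterpart, had log2 fold changes of 1.36 and 1.03 over neutrophil-like cells. mrpl16, mrpl30 and mrpl4, whose products have bacterial counterparts in the large subunit, were at 0.56, 0.48 and 0.44, and mrps36 at 0.31 ± 0.12 (adjusted p 0.024, edgeR). All of these were called. Against monocyte-like cells mrpl37 (0.72) and mrpl39 (0.48) were called, whereas mrpl4 (0.17) and mrps36 (-0.01) were not. The order differed against EHT-like cells, where mrpl39 stood at 2.35, mrpl4 at 1.69 and mrpl37 at 1.17, each called.

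Against monocyte-like cells the leading genes were mrpl46 (31.7 against 10.4 CPM, log2 fold change 1.31 ± 0.19), mrpl22 (48.1 against 16.2 CPM, 1.26 ± 0.18), mrpl44 (46.0 against 17.8 CPM, 1.09 ± 0.16), mrpl12 and mrpl10 (1.04 ± 0.14). The product of mrpl22 lines the exit tunnel, and that of mrpl44 resembles ribonuclease III. mrpl22 was also the leading gene against EHT-like cells (43.6 against 6.78 CPM, log2 fold change 2.86 ± 0.39), followed by mrps18b, mrpl20, mrpl48 and mrpl45 (2.50 to 2.79). In human cells MRPL45 anchors the particle to the inner membrane.

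The 3 paralogs of the S18 family did not move alike. Only 1 member of this family can occupy the bacterial S18 position, which in mammals is held by the product of Mrps18c, while those of Mrps18b and Mrps18a sit elsewhere in the small and large subunit. mrps18b was at 91.9 to 140.3 CPM in HSPC-like cells, above every plate of monocyte-like (16.7 to 83.9 CPM) and neutrophil-like cells (35.3 to 56.0 CPM). Its log2 fold changes were 0.96 ± 0.14 and 0.81 ± 0.11 (adjusted p 4.8e-06 and 7.3e-07, edgeR).

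mrps18a overlapped between these classes, at 38.9 to 68.5 CPM in HSPC-like, 34.9 to 93.1 CPM in monocyte-like and 23.5 to 71.9 CPM in neutrophil-like cells. It was not called in either comparison (log2 fold change -0.31 ± 0.14, adjusted p 0.053, and -0.16 ± 0.13, adjusted p 0.29). With library size alone it was 0.43 higher on the log2 scale in HSPC-like than in neutrophil-like cells and was called. mrps18c lay between the other two: it was higher than in neutrophil-like cells (31.3 against 15.1 CPM, 0.47 ± 0.16, adjusted p 0.012) and was not called against monocyte-like cells (31.0 against 24.9 CPM, adjusted p 0.99). All 3 paralogs were higher than in EHT-like cells (log2 fold changes 2.79 ± 0.30, 2.22 ± 0.30 and 1.68 ± 0.47 for mrps18b, mrps18a and mrps18c).

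A ratio of paralogs within a class does not depend on the scaling between libraries. UMIs of mrps18b over those of mrps18a were 2.16 ± 0.291 (SD, n = 12 plates) in HSPC-like, 0.966 ± 0.324 (n = 11) in monocyte-like and 1.21 ± 0.396 (n = 11) in neutrophil-like cells. The ranges of HSPC-like (1.61 to 2.48) and monocyte-like cells (0.179 to 1.33) did not overlap, and those of HSPC-like and neutrophil-like cells did (up to 2.12). In the CHT the HSPC-like ratio was 1.53 ± 0.481 (n = 4). A ratio shows unequal change and not which gene changed.

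Over all small-subunit genes the shift was slight. They took 30.01% ± 1.19 of the UMIs of the 66 genes in HSPC-like cells, 32.7% ± 1.61 in monocyte-like, 33.9% ± 1.25 in neutrophil-like and 33.2% ± 4.02 in EHT-like cells (SD over plates). The levels of the 66 genes kept much of their order between classes, with a Spearman's rho over genes of 0.837 between HSPC-like and monocyte-like cells, 0.769 with neutrophil-like and 0.690 with EHT-like cells. These are descriptions over genes measured in the same libraries.

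Other genes of mitochondrial translation were compared as a list of 46 genes found of 55 listed. They include assembly factors, translation factors and mitochondrial aminoacyl-tRNA synthetases. Unlike the mitochondrial ribosomal protein genes, this list was not left out of the clustering distance in the AGM or the CHT. Its counts and p-values between classes may thus not be independent of how the classes were formed. Against neutrophil-like cells 30 of 42 tested were higher and 1 lower (median log2 fold change 0.89), against monocyte-like cells 24 of 34 were higher and 0 lower (0.67), and against EHT-like cells 19 of 27 were higher and 0 lower (1.42). mrm1, which encodes a methyltransferase of the large ribosomal RNA, was at 5.73 against 0.363 CPM in neutrophil-like cells (log2 fold change 3.02 ± 0.53, adjusted p 3.4e-05). MTERF4, whose product forms a complex with that of nsun4 in mammals and acts in assembly of the particle, had a log2 fold change of 2.41 ± 0.31 and mterf3 of 2.19 ± 0.24. Against monocyte-like cells nsun4 led (10.0 against 1.31 CPM, 2.71 ± 0.53), followed by mterf3 (1.90 ± 0.27) and mtg1, a GTPase of assembly (1.86 ± 0.36).

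The exception was gfm1, the mitochondrial elongation factor G1, at 47.3 CPM in HSPC-like and 45.8 CPM in neutrophil-like cells (log2 fold change -0.53 ± 0.13, adjusted p 1.4e-03). With library size alone gfm1 was at 0.06 and was not called. Against EHT-like cells qrsl1, a subunit of the mitochondrial glutamyl-tRNA amidotransferase, led the list (2.75 ± 0.53). ict1, the gene named mrpl58 in the reference, encodes a release factor homolog that is part of the large subunit and falls outside the rule on symbols. It was not called against neutrophil-like or monocyte-like cells (log2 fold changes 0.11 ± 0.22 and 0.20 ± 0.26) and was higher than in EHT-like cells (1.56 ± 0.51, adjusted p 0.020).

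**Figure D4:**
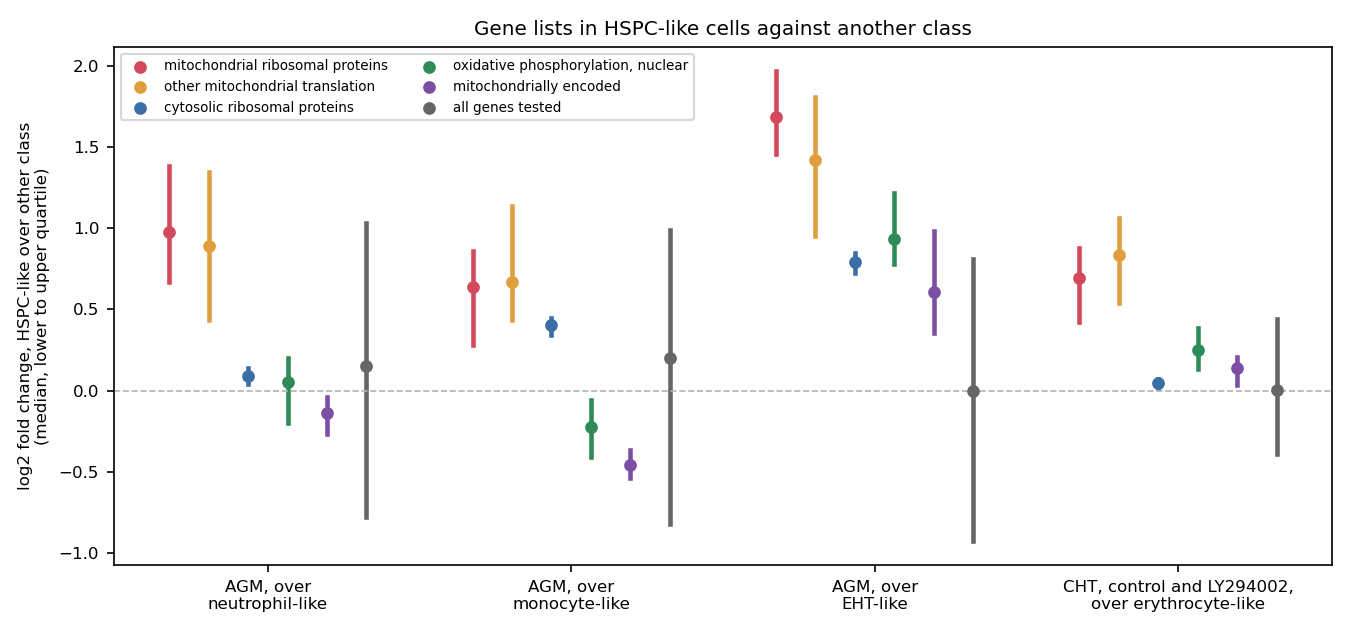
Median log2 fold change (y axis, point) with lower to upper quartile (bar) of 5 gene lists and of all genes tested, in HSPC-like cells over another class (x axis). The red points (mitochondrial ribosomal proteins) lie between 0.64 and 1.68, and the orange points (other mitochondrial translation) between 0.67 and 1.42.

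Neither cytosolic ribosomal protein genes nor oxidative phosphorylation genes had the same counts. The nuclear genes of both lists were not left out of the clustering distance either. Of the cytosolic ribosomal protein genes 14 of 74 were higher against neutrophil-like cells (median log2 fold change 0.09, and 0.66 without TMM factors) and 71 of 73 against monocyte-like cells (0.40). Nuclear-encoded oxidative phosphorylation genes were split against neutrophil-like cells, with 19 of 75 higher and 16 lower (median 0.05, and 0.63 without TMM factors), and 43 of 75 were lower against monocyte-like cells (-0.22). The median of the last was 0.09 without TMM factors, so that its direction depends on the scaling. HSPC-like plates lay wholly above the neutrophil-like plates for 25 of the oxidative phosphorylation genes and wholly below for 1, and above for 37 and below for 0 of the cytosolic ones, so that the split rests on the scaling. Of the 15 mitochondrially encoded genes 7 were lower against neutrophil-like cells (median -0.13, and 0.44 without TMM factors) and 13 against monocyte-like cells (-0.46, and -0.15 without). Against EHT-like cells all of these lists were higher, with 72 of 74 cytosolic, 64 of 75 oxidative phosphorylation and 10 of 15 mitochondrially encoded genes called.

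In the CHT the comparison partner of HSPC-like cells was the erythrocyte-like class, which had at least 20 cells on every plate. Neutrophil-like cells, among others, also reached this number on each of the 4 plates and were not compared with HSPC-like cells. On the 4 plates the summed share in HSPC-like cells was 0.365% (W1), 0.405% (W2), 0.337% (V1) and 0.335% (V2). In erythrocyte-like cells it was 0.241%, 0.253%, 0.182% and 0.183% on the same plates. HSPC-like cells were higher on 4 of 4 plates, by 1.69-fold when ratios were averaged over plates on the log2 scale. The ratio was 1.51-fold (W1) and 1.60-fold (W2) on control plates, and 1.85-fold (V1) and 1.83-fold (V2) on treated plates. Of 64 genes tested, 44 were higher and 0 lower (29 of the large and 15 of the small subunit), where 16.8% of all 7105 genes tested were higher and 13.8% lower. The median log2 fold change was 0.69, that of all genes 0.00, and 31 genes had HSPC-like plates wholly above the others (12.9% of all genes). Leaving out plate W1 left 29 genes called, DESeq2 called 20 and Leiden clusters 26. These counts are given without the share of all genes called in those fits. Erythrocyte markers took 0.889% to 1.01% of UMIs in HSPC-like and 6.04% to 7.57% in erythrocyte-like cells.

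mrpl12 was among the leading genes here as well. It was at 114 to 153 CPM in HSPC-like cells and at 44.0 to 61.3 CPM in erythrocyte-like cells, so that the plates of both classes were well apart (log2 fold change 1.34 ± 0.15, adjusted p 3.4e-08, edgeR). With Leiden clusters its log2 fold change was 1.09 and it was still called. The other leading genes were mrpl54, mrpl22, mrps23 and mrps17 (log2 fold changes 1.06 to 1.45). mrps23 had few UMIs (13.4 against 6.04 CPM, adjusted p 0.044) and was not called with Leiden clusters.

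Other genes of mitochondrial translation were higher in 14 of 30 cases and lower in 0 (median log2 fold change 0.83). They included fastkd2, an RNA-binding protein of the mitochondrial RNA granule (73.0 against 28.8 CPM, 1.25 ± 0.19). Cytosolic ribosomal protein genes were higher in 1 of 73 cases and oxidative phosphorylation genes in 28 of 74, with 0 lower in both.

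Treatment with LY294002 was compared on plates of a single treatment. The AGM plates were sorted in an early (days 1 to 4) and a late period (days 10 to 12), and the AGM fits carried a term for it. In HSPC-like cells of the AGM the summed share was 0.370%, 0.428%, 0.388% and 0.408% on control plates C1 to C4, and 0.337%, 0.380%, 0.309%, 0.322% and 0.383% on treated plates L1 to L5. The mean was 0.346% ± 0.0341 after treatment against 0.398% ± 0.0249 in controls, a log2 ratio of -0.21 ± 0.12 (SD), and the plates overlapped. The log2 ratio was -0.15 within days 1 to 4 and -0.24 within days 10 to 12.

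No single gene was called in AGM HSPC-like cells, with 0 of 65 at an adjusted p under 0.05 by edgeR's quasi-likelihood test and 0 by DESeq2, where 0.0390% of all 10260 genes tested were called. At an unadjusted p under 0.05 there were 10 of 65 genes (1228 of all 10260 genes tested, a similar share). The fold changes leaned to one side: 60 of the 65 were negative, with a median of -0.21 against -0.01 for all genes. The treated plates lay wholly below the control plates for 4 genes (1.70% of all genes) and wholly above for 0 (1.33%). mrpl12 was not among these 4, at 172 to 239.7 CPM in controls and at 143 to 184 CPM after treatment (log2 fold change -0.30 ± 0.14, adjusted p 0.40). The smallest p was that of mrpl11, chosen after its values were seen, at 122 to 156 CPM against 80.8 to 113 CPM (-0.59 ± 0.15, adjusted p 0.20). Other lists also had negative medians, with -0.16 for cytosolic ribosomal protein genes, -0.20 for oxidative phosphorylation genes and -0.29 for other genes of mitochondrial translation.

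**Figure D5:**
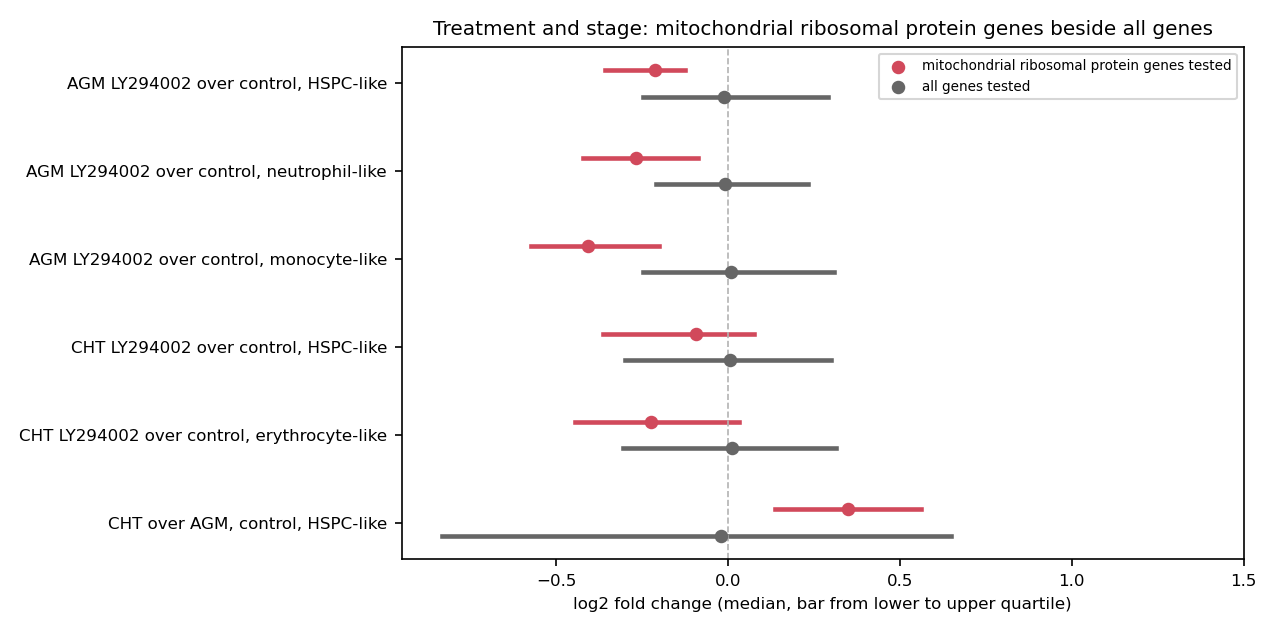
Median log2 fold change (x axis, point) with lower to upper quartile (bar) of the mitochondrial ribosomal protein genes tested (red) and of all genes tested (grey) in the comparisons of treatment and stage (y axis). In the 3 AGM comparisons of LY294002 with control the red medians lie at -0.41 to -0.21 and the grey ones at -0.01 to 0.01, although no single gene was called.

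No gene was called in the other AGM classes either, and their mean shares were lower on treated plates. In neutrophil-like cells the share was 0.132% to 0.174% on control plates and 0.0990% to 0.137% on treated plates (log2 ratio -0.33 ± 0.17), and 48 of 59 genes had negative fold changes (median -0.27). In monocyte-like cells it was 0.189% to 0.273% against 0.149% to 0.192% (-0.45 ± 0.19), and 56 of 62 genes were negative (median -0.41). The plates overlapped in both classes, by C4 in each. edgeR's quasi-likelihood test called 0 genes in either class, where 0.0272% and 0.104% of all genes tested were called, and DESeq2 called 0. Genes at an unadjusted p under 0.05 were 6 of 59 and 9 of 62. Of all genes tested, 596 of 7357 and 758 of 6760 were under it, which are similar shares. Treated plates lay wholly below for 5 genes in neutrophil-like (1.78% of all genes) and 9 in monocyte-like cells (4.05%), and wholly above for 0 in both (0.734% and 1.76%). Of the oxidative phosphorylation genes 56 of 73 were negative in neutrophil-like and 65 of 73 in monocyte-like cells. Cytosolic ribosomal protein genes were negative in 37 of 72 and 56 of 73 cases, and all genes tested in 3746 of 7357 and 3332 of 6760.

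Among the mitochondrial ribosomal protein genes the smallest adjusted p in monocyte-like cells, chosen after its values were seen, was that of mrpl34 (0.11, edgeR). It was at 80.5, 94.6, 40.4 and 32.0 CPM on C1 to C4 and at 20.2, 20.8, 21.4 and 23.3 CPM on L1 to L4 (log2 fold change -1.32 ± 0.28, edgeR). The treated plates were alike and below all control plates, and the controls differed by sort period. EHT-like cells had at least 20 cells on only 2 plates per group, at 0.156% and 0.140% in controls and 0.0818% and 0.0799% after treatment, and were not tested. Plates with fewer EHT-like cells did not all follow this: C3 and C4 (19 and 18 cells) were at 0.147% and 0.142%, and L3, L4 and L5 (14, 6 and 9 cells) at 0.343%, 0.167% and 0.0973%. On L3 the EHT-like share was above the HSPC-like share (0.309%).

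Other measures moved with treatment in the AGM. Mitochondrially encoded ribosomal RNA took 0.971% to 3.53% of UMIs in control and 2.61% to 9.45% in treated HSPC-like cells. The median of all UMIs per cell was 11370 to 14440 on control and 6409 to 13010 on treated plates, and neutrophil markers took 0.0996% to 0.232% against 0.194% to 0.389%. Their part in the lower share was not tested. The small subunit took 28.7% ± 0.690 of the UMIs of the 66 genes in control and 30.8% ± 0.583 in treated HSPC-like cells, in ranges that did not overlap (27.7% to 29.3% and 30.1% to 31.6%). In AGM neutrophil-like and monocyte-like cells the control and treated ranges overlapped. HSPC-like cells of the CHT went the other way, at 28.3% and 29.3% in controls (W1, W2) and 26.4% and 27.7% after treatment (V1, V2). Control and treated plates shared no sort day in the early period (day 1 against day 4), where sort day cannot be told apart from treatment. In the late period control plates were of days 10 and 11 and treated plates of days 11 and 12. The effect of sort day was not tested there.

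In the CHT at 5 dpf the comparison rested on 2 plates against 2. The HSPC-like share was 0.365% and 0.405% in controls and 0.337% and 0.335% after LY294002 (log2 ratio -0.19 ± 0.07), and the erythrocyte-like share 0.241% and 0.253% against 0.182% and 0.183% (-0.44 ± 0.04). Treated plates were lower in both classes without overlap. The other classes were not. Neutrophil-like cells were at 0.116% and 0.140% in controls and 0.161% and 0.145% after treatment. Cluster 2 of the CHT was at 0.177% and 0.209% in controls and 0.215% and 0.181% after treatment. This cluster had its best marker score for myeloid progenitors (0.434), and Leiden clusters gave the name myeloid-like to only 34.0% of its cells. The log2 ratio in HSPC-like cells was -0.0661 when the 50 genes with most UMIs were left out of the total, -0.295 with Leiden clusters and -0.304 without the deepest 2% of cells, and it ran from -0.27 to -0.12 when a plate was left out. edgeR's quasi-likelihood test called 0 of 64 genes in HSPC-like and 0 of 63 in erythrocyte-like cells, where 0 and 0.484% of all genes tested were called, and DESeq2 called 0. At an unadjusted p under 0.05 there were 4 of 64 and 9 of 63 genes. Of all genes tested, 598 of 6025 and 1073 of 6192 were under it, which are larger shares. The median log2 fold changes were -0.09 and -0.23, against 0.005 and 0.013 for all genes. Without TMM factors the medians were -0.20 and -0.44, against -0.10 and -0.20 for all genes. Treated plates lay wholly below for 26 genes in HSPC-like cells (28.2% of all genes) and 35 in erythrocyte-like cells (39.3%), and wholly above for 9 (15.4%) and 2 (12.5%).

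Muscle genes took 1.72% and 6.18% of UMIs in HSPC-like cells of the control plates and 0.00447% and 1.3% after treatment, and their part was not tested. With Leiden clusters the log2 ratio of the erythrocyte-like share was -0.22. In erythrocyte-like cells the smallest p, chosen after its values were seen, was that of mrpl14, at 52.5 and 43.5 CPM in controls and 11.8 and 13.8 CPM after treatment (-1.67 ± 0.33, adjusted p 0.065). With a plate left out, the median log2 fold change of these genes in erythrocyte-like cells ran from -0.36 (without W1) to -0.12 (without W2). That of all genes ran from -0.03 to 0.02. In such fits 1 group is a single plate, assumed to vary like the plates of the other group.

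Between stages, control HSPC-like cells of the CHT at 5 dpf and of the AGM at 36 hpf had the same summed share within the spread of plates. It was 0.385% ± 0.0282 (n = 2) in the CHT and 0.398% ± 0.0249 (n = 4) in the AGM (log2 ratio -0.05 ± 0.09). The gene-wise fit placed 16 of 65 genes higher and 0 lower in the CHT, where 17.5% of all 10329 genes tested were higher and 16.6% lower. The direction rests on the scaling: the median log2 fold change was 0.35 with TMM factors and -0.09 without, and that of all genes -0.02 and -0.46. With library size alone 3 genes were higher and 6 lower, counts given without the share of all genes called in that fit. The CHT plates lay wholly above for 9 genes (15.1% of all genes) and wholly below for 15 (40.5%).

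With Leiden clusters the count of genes higher in the CHT fell to 2. Without W2, which leaves a single CHT control plate, the median log2 fold change was 0.31, against -0.08 for all genes. mrpl43 had the largest change, at 138 and 122 CPM in the CHT against 64.2 to 76.6 CPM in the AGM (log2 fold change 1.32 ± 0.15, adjusted p 1.9e-04, edgeR). It was followed by 4 small-subunit genes, mrps27, mrps31, mrps10 and mrps14 (0.96 to 1.06). mrps18b went the other way in CPM (74.0 and 73.4 in the CHT against 91.9 to 138 in the AGM) and was not called (-0.29 ± 0.18, adjusted p 0.24). Erythrocyte markers took 0.97% to 1.01% of UMIs in the HSPC-like cells of the CHT and 0.0163% to 0.101% in those of the AGM. The HSPC-like classes of the CHT and the AGM thus differed in make-up. Stage, tissue, sort day, erythrocyte markers and the muscle genes (0.00337% to 0.0145% in the AGM) changed together and cannot be told apart.

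Among the other genes of mitochondrial translation 8 of 40 were higher in the CHT and 2 lower, where 17.5% of all genes tested were higher and 16.6% lower. The count of higher genes is thus near the share of all genes. The median log2 fold change of this list was 0.40 with TMM factors and -0.03 without. Higher were vars2, the mitochondrial valyl-tRNA synthetase (16.1 against 5.59 CPM, 1.92 ± 0.40), and the initiation factor mtif2 (20.2 against 7.16 CPM, 1.91 ± 0.28), and lower were cars2, the cysteinyl-tRNA synthetase (5.88 against 16.9 CPM, -1.06 ± 0.35), and lrpprc (-0.46). Cytosolic ribosomal protein genes were higher in 63 of 73 cases and oxidative phosphorylation genes in 57 of 77. The levels of the 66 genes ran in a similar order in HSPC-like cells of the AGM and the CHT, with a Spearman's rho over genes of 0.828.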

How the data were processed

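SORT-seq (CEL-Seq2 chemistry) gave UMIs per gene and well. The authors mapped reads to the Zv9 transcriptome, with BWA per the submitters' processing notes, and deposited estimated counts of UMIs, corrected for collisions of identifiers and not normalized. Wells with at least 1500 UMIs were kept, as in the study. No doublet caller was used, and all wells were used although the labels say that the study left some out. The treatment of wells on mixed plates was not used. A further comparison of the series on 4 CHT plates is not reported here, and 2 of these plates entered the stage fit only as a separate group that shares the estimate of spread.

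Cells of the AGM and of the CHT were clustered separately by k-medoids (5 clusters) on 1 minus Pearson's r, as in RaceID, with the 66 genes, the mitochondrially encoded genes and tmed1b left out, and named by the markers of the study. Names were thus rebuilt and may differ from those of the study. Counts were summed per plate and class (at least 20 cells), rounded and tested with edgeR 4.0.16 (R 4.3.3, limma 3.58.1; filterByExpr, TMM, quasi-likelihood test, plate as a block between classes, sort period in the AGM) with Benjamini-Hochberg adjustment over all genes tested and a threshold of 0.05. SE is the absolute log2 fold change over the square root of F. CPM is the UMIs of a gene per 1000000 UMIs of the class on a plate, with no TMM factor. DESeq2 1.42.0, Python 3.11.15, numpy 2.4.6, pandas 2.3.3, scipy 1.17.1, scanpy 1.11.5 and matplotlib 3.10.9 were used. Alternatives were other size factors, DESeq2, no filter, 3000 UMIs, Leiden clusters, no 2% of cells with most UMIs, other totals, no block and each plate left out. Library size alone and fits within sort periods were chosen after seeing the data.

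The fit was tested on simulated data with known changes.

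Named genes are the 12 with most UMIs, up to 5 called in each direction per comparison, the mrps18 paralogs, mrpl12, mrpl58 and up to 3 other mitochondrial translation genes in each direction. Exceptions are marked, and mrpl10 and mrpl45 were named in a comparison beside that which chose them. The genes and lists were chosen with earlier results of these data known. Gene levels are UMIs of 3′ tags.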

Additional observations from a re-analysis of the deposited data

Results flagged for a closer look

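Several measures were each tested in groups of 4 or 5 plates. Of these 96 tests, 4 found a plate far from the others (a gap to the nearest plate, relative to the range, above Dixon's critical value). Chance alone gives about 1 in 20, and tests on the same plates are not independent. In LY294002-treated monocyte-like cells of the AGM mrpl12 was at 32.8 CPM on L3, with the other plates at 62.4 to 67.5 CPM. In the same group mrps18c was at 30.6 CPM on L2, with the others at 20.9 to 21.9 CPM. In treated neutrophil-like cells mrpl39 was at 24.9 CPM on L4, with the others at 38.6 to 43.5 CPM. In control neutrophil-like cells mrpl23 was at 18.3 CPM on C1, with the others at 30.4 to 31.8 CPM.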

How the results depend on the processing

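The AGM class comparisons kept their direction, and their counts of calls within 1.5 times, in the alternatives run, with 60 to 63 (neutrophil-like), 48 to 50 (monocyte-like) and 62 to 65 genes (EHT-like) called when a plate was left out, and log2 ratios of the share of 1.47 to 1.52, 0.82 to 0.87 and 1.56 to 1.76. With no plate block 62, 45 and 64 were called, and 30 in the CHT class comparison (44 with the block), no call count moving by over 1.5 times. In the CHT class comparison DESeq2 called 20 genes and Leiden clusters 26, and leaving out a plate gave 29 to 36 (log2 ratios 0.72 to 0.81). The cause was not tested. Counts of calls under the alternatives are given without the share of all genes called in each fit.

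For LY294002, leaving out a plate gave 0 calls in each AGM class. In the CHT 1 group is then a single plate that is assumed to vary like the other group, and the calls of such fits are not given. With a plate left out the log2 ratios of the share ran from -0.24 to -0.17 (AGM HSPC-like), -0.39 to -0.25 (neutrophil-like), -0.55 to -0.37 (monocyte-like), -0.27 to -0.12 (CHT HSPC-like) and -0.47 to -0.40 (CHT erythrocyte-like). In monocyte-like cells 1 gene was called with no filter and 1 within days 1 to 4. In CHT erythrocyte-like cells library size alone gave 3 calls, no filter 2 and the set without the deepest 2% of cells 1. The log2 ratio in CHT HSPC-like cells was -0.0661 without the 50 genes with most UMIs in the total, -0.295 with Leiden clusters and -0.304 without the deepest 2% of cells. In erythrocyte-like cells it was -0.329, -0.222 and -0.476.

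For CHT over AGM, leaving out a plate gave 6 to 15 calls (log2 ratios -0.13 to 0.025), library size alone 9, DESeq2 10, no filter 8 and Leiden clusters 2. The ratio was 0.0525 without the 50 genes with most UMIs and 0.0460 without the deepest 2% of cells. Named genes reversed in 2 cases, gfm1 (0.0573) and mrps18a (0.426) over neutrophil-like cells with library size alone. No paired analysis was run between groups, and the labels give them no shared replicate numbers. Plates X1 to X3 hold cells of both treatments, but the treatment of their wells was not used.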
